A study of Mus musculus with 9 samples.

Results

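Heat shock proteins and their DNAJ cochaperones were followed in mouse liver across diet and drug treatment. The set was chosen by gene name: protein-coding genes of the Hsp70, Hsp110, Hsp90, Hsp60, Hsp10 and small heat shock protein families and of the Dnaja, Dnajb and Dnajc families, without Hspa5 and Dnajb9. It held 70 of the 54532 genes in the table. Of these, 57 reached the level needed for testing, at least 0.5 FPKM (read fragments scaled to gene length and library size) in at least 3 of the 9 libraries. The other 13 never exceeded 0.629 FPKM, and Dnajc5b, Dnajc5g and Hspb3 had no read in any library.

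Livers came from male wild-type C57BL/6J mice in 3 groups of 3 libraries. The chow group ate a normal diet and received vehicle. The vehicle group ate CDAA-HFD, a high-fat diet that lacks choline and has a defined amino acid content, used in mice to model metabolic dysfunction-associated steatohepatitis (MASH), and received vehicle. The 326E group ate CDAA-HFD and received the compound 326E at 30 mg/kg for 6 weeks. The series title describes 326E as an enedioic acid analogue acting on ATP citrate lyase and PPARα. Sample titles carry the letters MCD for all groups, chow included, whereas the protocol names CDAA-HFD, which is followed here. No age is given in the sources used here, and nothing in the labels ties the libraries of a group to different mice. Every p-value below thus measures the spread between these samples, which may be technical in part.

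Heat shock proteins are molecular chaperones that bind unfolded protein and help it fold, move or be degraded. Hsp70 proteins work in cycles of ATP hydrolysis that DNAJ proteins start by delivering a client, and that nucleotide exchange factors such as Hsp110 and BAG proteins reset. Hsp90 takes over later steps for kinases and receptors, Hsp60 with Hsp10 folds proteins inside mitochondria, and small heat shock proteins hold clients without using ATP. Heat shock factor 1 (HSF1) induces the cytosolic stress members through heat shock elements, inverted repeats of GAA, whereas endoplasmic reticulum (ER) members are induced by the unfolded protein response through ER stress elements.

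The upstream sequences of 5 members are shown because they carry heat shock or ER stress elements, and because the results below turn on these genes. They are RefSeq promoter sequences on GRCm38.p6, read 5′ to 3′ on the gene's strand. They end at the base before the gene, except for Dnajc3. Its sequence ends at 118937931, whereas the gene as deposited starts at 118937976. In Hspa1a, the stress-inducible Hsp70 (chr17:34972157-34972276, minus strand), its near copy Hspa1b (chr17:34959239-34959358, minus strand) and Hspb1, the small heat shock protein Hsp25 (chr5:135887799-135887918, plus strand), capitals mark matches to GAANNTTC, a pair of heat shock units. In Hsp90b1, the ER Hsp90 known as Grp94 (chr10:86705510-86705629, minus strand), and Dnajc3, an ER cochaperone (chr14:118937812-118937931, plus strand), capitals mark the ER stress element, CCAAT and CCACG set 9 bases apart, which Hsp90b1 carries in reverse order on the complementary letters.
Hspa1a: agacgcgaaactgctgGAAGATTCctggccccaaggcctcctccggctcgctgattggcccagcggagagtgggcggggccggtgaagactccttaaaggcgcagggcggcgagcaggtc
Hspa1b: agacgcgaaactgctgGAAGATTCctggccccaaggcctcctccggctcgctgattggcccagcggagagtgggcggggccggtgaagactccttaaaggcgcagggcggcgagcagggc
Hspb1: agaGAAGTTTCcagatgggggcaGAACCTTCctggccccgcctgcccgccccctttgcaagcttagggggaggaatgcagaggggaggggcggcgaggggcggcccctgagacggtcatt
Hsp90b1: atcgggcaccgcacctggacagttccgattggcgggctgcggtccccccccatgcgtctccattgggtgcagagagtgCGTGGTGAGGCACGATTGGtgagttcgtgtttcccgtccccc
Dnajc3: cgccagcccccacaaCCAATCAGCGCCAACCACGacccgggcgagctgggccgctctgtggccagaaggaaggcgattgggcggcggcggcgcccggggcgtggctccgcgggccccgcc
Hspa1a and Hspb1 stand for genes with very different responses below, although both carry the motif. The Hspa1a and Hspb1 matches lie 104 and 117 bases before the gene at their far end, and Hspb1 holds 2 matches in this window.

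The motifs were counted on both strands in the 250 bases before each RefSeq start, for the 56 members that have such a window (73 windows). GAANNTTC or TTCNNGAA, each its own reverse complement, was found in 21.9% of the members' windows and in 12.8% of all 32851 windows. A run of 3 alternating units, which contains both of these, was found in 5.48% of the members' windows, in Dnajb6, Hspd1 and Hspe1, and in 0.466% of all windows. The ER stress element was found in Dnajc3 and Hsp90b1 alone among the members, 2.74% of their windows against 0.113% of all. Hspd1 and Hspe1 lie head to head and share the region between their starts, and Hspa1a and Hspa1b share 119 of the 120 bases shown. A match describes the letters and not a bound site.

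Assigned reads ranged from 13275888 to 17058316 over the libraries. The vehicle libraries differed among themselves before any result on the set. Immediate early genes, whose transcripts are switched on within minutes of a stimulus, summed to 969 and 1380 FPKM in vehicle replicates 1 and 3. They summed to 165 FPKM in vehicle replicate 2, 53.9 to 93.0 FPKM in chow and 82.1 to 107 FPKM in the 326E libraries. Vehicle replicates 1 and 3 thus lay far above every other library, and replicate 2 lay nearer to chow and 326E. Hepatocyte markers were present throughout, with summed Alb, Apoa1, Ttr, Cyp2e1 and Hnf4a of 25100 to 47300 FPKM, and skeletal muscle markers were at or below 0.130 FPKM, with Myh4 at 0 in all libraries. Macrophage markers summed to 148 to 165 FPKM in chow, 866 to 1290 FPKM in vehicle and 485 to 836 FPKM in 326E livers, and all 5 rose with the diet.

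In chow livers the set was carried by a few constitutive genes. Hsp90ab1, the constitutive cytosolic Hsp90, stood at 375 ± 80.6 FPKM (SD, n = 3). Hspa8, the constitutive Hsp70 known as Hsc70, followed at 267 ± 40.2 FPKM, and its 3 chow libraries lay below those of Hsp90ab1. Hsp90b1, Hspd1 (mitochondrial Hsp60) and Hspa9 (mitochondrial Hsp70) came next at 213 ± 85.0, 208 ± 35.1 and 158 ± 6.27 FPKM, with overlapping ranges for the first pair. These 5 genes made up 53.2 to 60.8% of the members' summed FPKM in the 9 libraries, and the 10 most abundant 76.2 to 81.4%. The stress-inducible Hspa1b and Hspa1a were at the other end in chow, at 2.47 ± 0.899 and 0.184 ± 0.0468 FPKM. The members' summed level was 1810 to 2530 FPKM in chow, 2090 to 2230 FPKM in vehicle and 1830 to 1970 FPKM in 326E livers, so that chow and vehicle overlapped. This overlap came from chow replicate 3 (2530 FPKM), as chow replicates 1 and 2 (1950 and 1810 FPKM) lay below every vehicle library.

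The first comparison, vehicle against chow, asked what the diet changed. Differences are given on the log2(FPKM + 1) scale with their standard error, from limma, and were called at an adjusted p under 0.05. Of the 57 tested members, 8 rose and 12 fell, 35.1% in all, when 41.6% of the 13737 tested genes passed in this comparison, 20.8% higher and 20.8% lower. The members' share was below that of all genes. Their median difference was -0.05, against -0.04 for all genes tested. In this bulk tissue, fewer cells of a type and less RNA per cell cannot be told apart.

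The direction split depended on the scaling. Scaled to total assigned reads instead of the authors' scaling, the median of all genes moved from -0.04 to 0.25, and 18 members rose and 3 fell. All 8 rises were kept there, and the 3 falls kept were Hspb6, Dnajc22 and Dnajc28. Falls of other members were not kept there and thus depend on the scaling. Orders and overlaps of libraries are given on the deposited scaling throughout, and can differ under another. Quantile normalization called 10 rises and 13 falls, with a median of -0.09, against -0.085 for all genes. It shared 17 calls with the 20 on the deposited scaling. Without vehicle replicate 2 the count was 8 rises and 9 falls, and with only that replicate kept, its lone value assumed to vary like the other groups, it was 5 and 4.

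**Figure D1:**
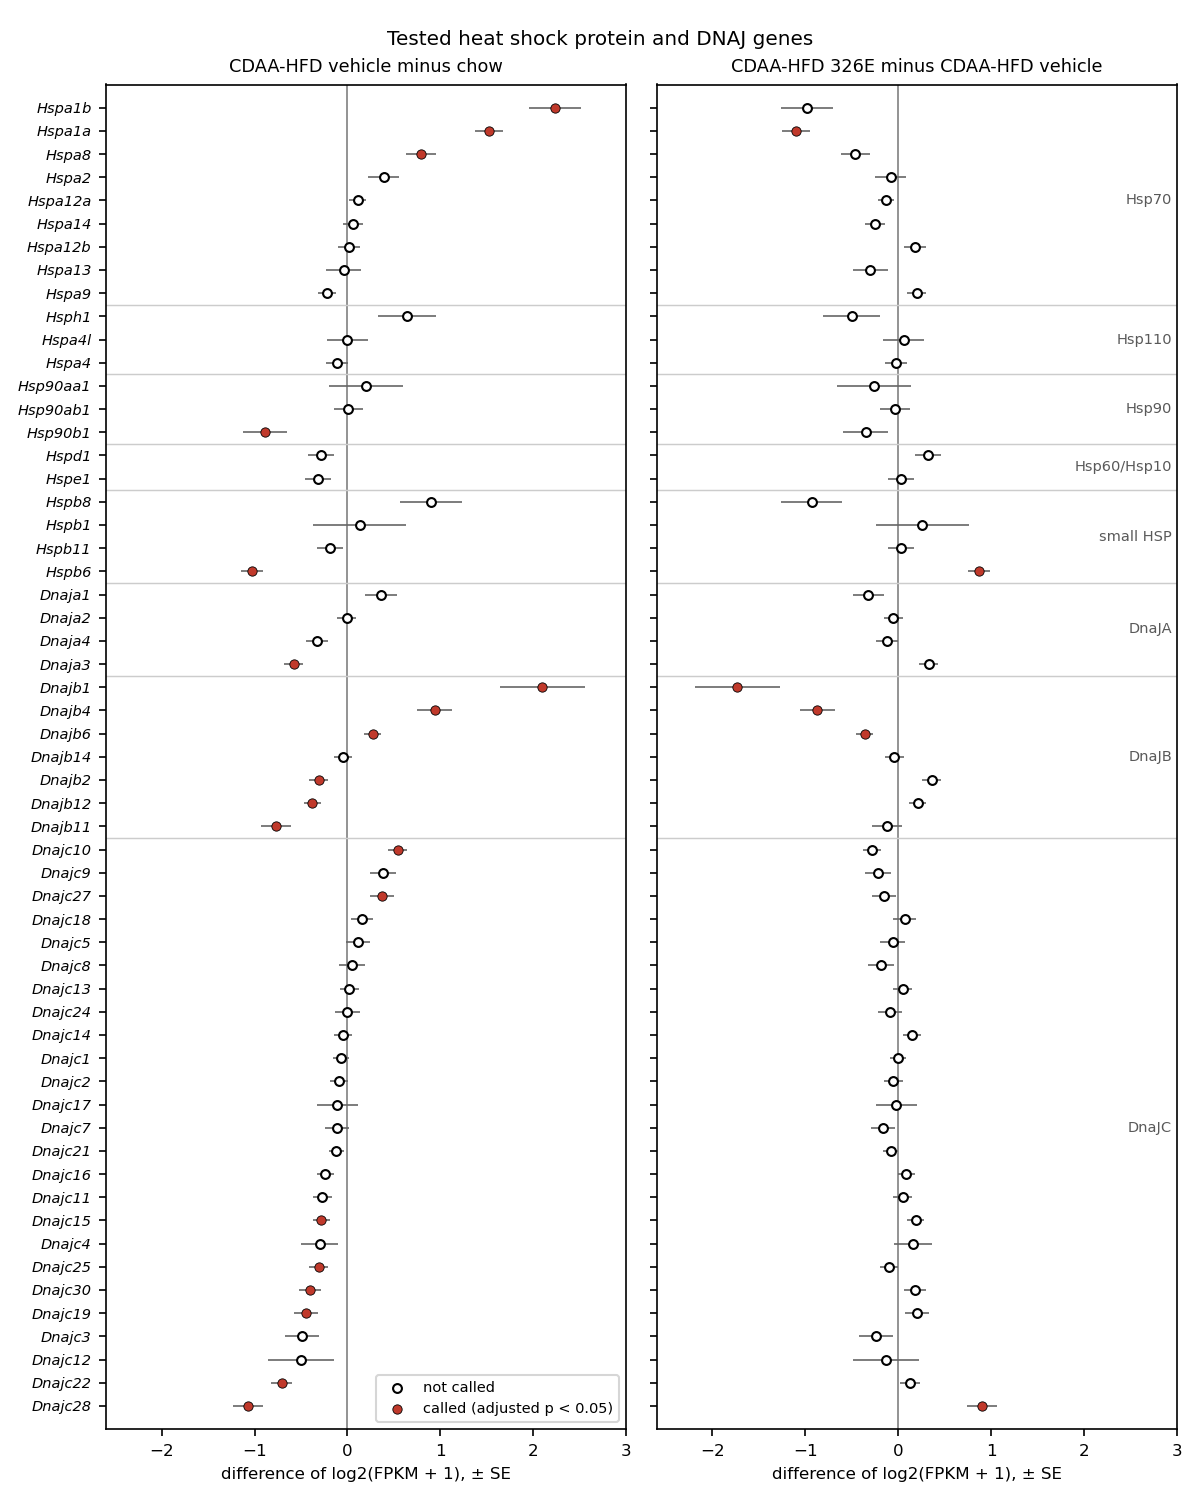
Differences of log2(FPKM + 1) with their standard errors for the 57 tested members, vehicle minus chow on the left and 326E minus vehicle on the right, grouped by family; filled points passed at adjusted p under 0.05. Hspa1b, Dnajb1 and Hspa1a lie farthest to the right for the diet and Dnajb1 farthest to the left for 326E, while Hspb6 and Dnajc28 show the reverse order; scaled to total assigned reads, only Hspb6, Dnajc22 and Dnajc28 of the 12 diet falls were kept.

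Among Hsp70 chaperones, the stress-inducible pair and Hsc70 rose with the diet and none of the 9 tested fell. That is 33.3% called, when 41.6% of all tested genes passed and 20.8% were higher. Hspa1a was at 0.131, 0.208 and 0.215 FPKM in chow, at 2.10, 2.52 and 2.58 FPKM in vehicle, and at 1.03, 0.410 and 0.398 FPKM in 326E livers. Every vehicle library lay above every other library, and the 326E libraries all lay above chow. The chow values rest on 5 to 8 reads per library. Only the vehicle libraries and 326E replicate 1 reached 0.5 FPKM. Hspa1a thus passed the filter through the groups where it was high, which limits its tests here and below. The vehicle mean was 13.0 times the chow mean, 2.40 ± 0.262 against 0.184 ± 0.0468 FPKM (SD, n = 3). Hspa1a rose by 1.52 ± 0.15 with the diet (limma, adjusted p = 9.08e-05), a scale that understates the change of so low a gene: the rise was 3.14 with a pseudocount of 0.1 in place of 1, and 0.51 with 5. Hspa1b, the more abundant copy, was at 3.51, 1.93 and 1.98 FPKM in chow, 20.8, 15.4 and 10.2 FPKM in vehicle, and 8.68, 5.07 and 7.95 FPKM in 326E livers. The 3 groups did not overlap, with 326E between the others. Hspa1b rose by 2.23 ± 0.28 (adjusted p = 0.000296).

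Hspa1a and Hspa1b are identical at 1918 of 1929 aligned coding positions (99.4%), with a longest identical run of 638 bases. How reads matching both were counted is not stated, so the share of each is uncertain. Summed, a choice made after the values were seen, the pair rose by 2.36 ± 0.25 (adjusted p = 0.000135). On mm10 both lie on chromosome 17, Hspa1a (ENSMUSG00000091971) at 34969190 to 34972156 and Hspa1b (ENSMUSG00000090877) at 34956436 to 34959238. Of the Hspa1a exon bases, 19.0% overlap Gm20481 on the opposite strand, and the strand setting of the counting is not stated.

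Hspa8 (ENSMUSG00000015656, chromosome 9, 40800984 to 40810087) was at 232, 258 and 311 FPKM in chow, 412, 444 and 530 FPKM in vehicle, and 353, 294 and 357 FPKM in 326E livers. All vehicle libraries lay above all others. It rose by 0.79 ± 0.16 with the diet (adjusted p = 0.00355), and its mean gained more FPKM than that of any other called member. The other tested Hsp70 genes did not pass. Hspa2 had the largest difference of them (0.39 ± 0.17, adjusted p = 0.0875). The mitochondrial Hspa9 was at -0.22 ± 0.10 (adjusted p = 0.118).

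**Figure D2:**
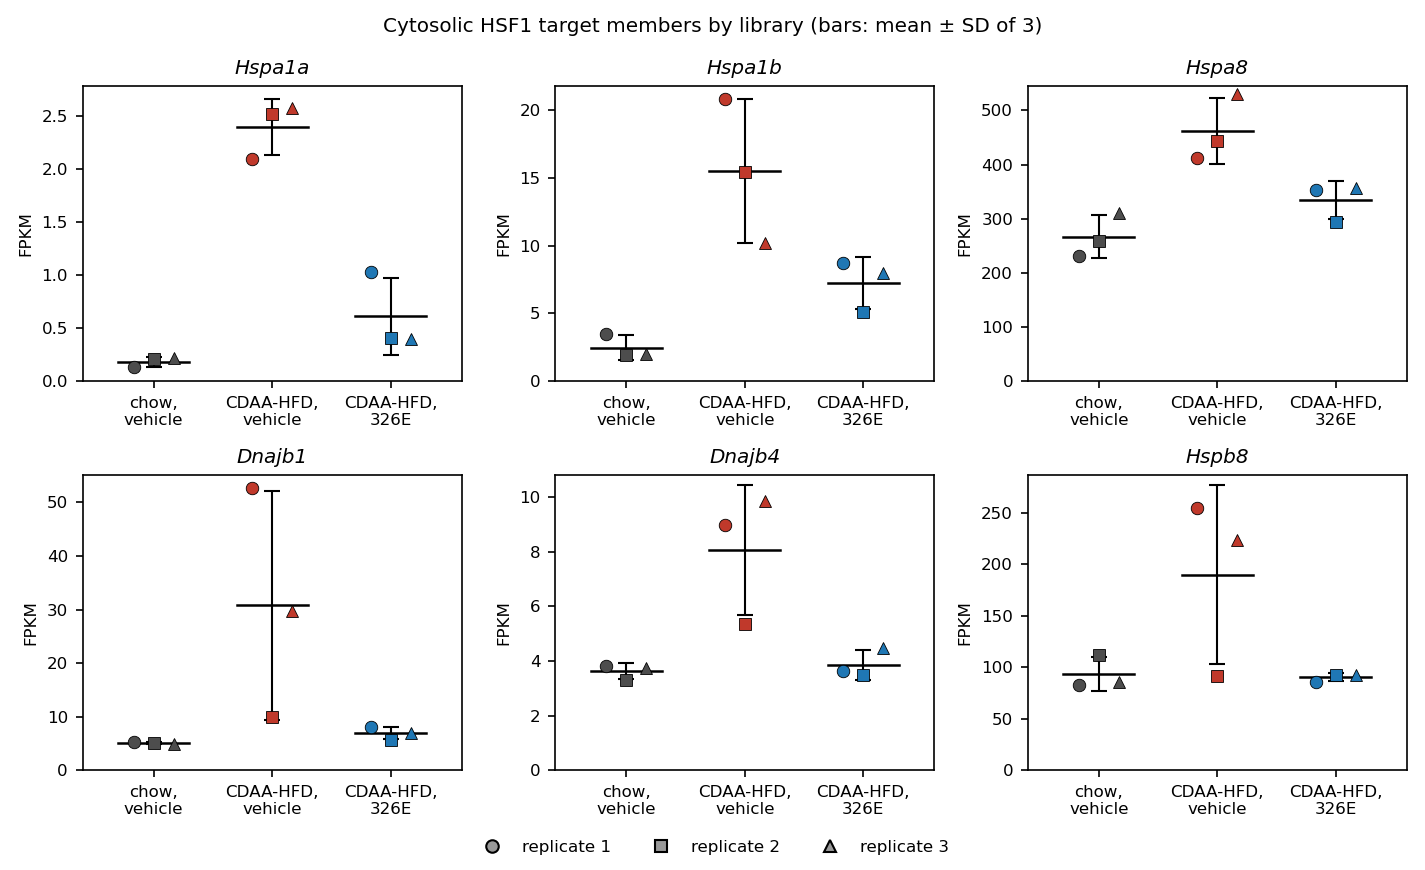
FPKM of 6 cytosolic HSF1 target members, the constitutive Hspa8 among them, in each library, with the group mean and SD of 3 libraries. Of the list of 14, these are the 5 called as rising with the diet and Hspb8. The others, not shown, were not called for the diet. Symbols give the replicate number, and each axis starts at 0. Vehicle libraries are the highest for Hspa1a, Hspa1b, Hspa8, Dnajb1 and Dnajb4, whereas Hspb8 in vehicle replicate 2 (91.5 FPKM) sits within the chow range.

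DnaJB cochaperones moved in both directions, with 3 rises and 3 falls among 7 tested and Dnajb14 short of the threshold. That is 85.7% called, when 41.6% of all tested genes passed. Dnajb1, the main Hsp40 partner of inducible Hsp70, was at 5.30, 5.08 and 4.89 FPKM in chow, 52.7, 9.90 and 29.7 FPKM in vehicle, and 8.07, 5.73 and 6.98 FPKM in 326E livers. The vehicle libraries were spread far apart, and the lowest, replicate 2, was still above every chow and 326E library. Dnajb1 rose by 2.10 ± 0.46 (adjusted p = 0.00602), and by 0.84 with only vehicle replicate 2 kept. Dnajb4, a close relative, was at 3.83, 3.29 and 3.76 FPKM in chow, 8.99, 5.36 and 9.85 FPKM in vehicle, and 3.62, 3.47 and 4.47 FPKM in 326E livers. Vehicle libraries were again the highest, with replicate 2 the lowest of them, and Dnajb4 rose by 0.94 ± 0.19 (adjusted p = 0.00383). That call ended with only replicate 2 kept (0.46, adjusted p = 0.0698; over all alternatives adjusted p = 0.000245 to 0.0698).

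Dnajb6, which holds back protein aggregation, rose by 0.27 ± 0.09 (adjusted p = 0.0344). That call was lost when vehicle replicate 1, 2 or 3, chow replicate 2 or 3, or 326E replicate 2 was left out (adjusted p = 0.0501 to 0.0963). The falls were of Dnajb11 (below), Dnajb12 and Dnajb2. Dnajb12, an ER membrane protein, was at -0.38 ± 0.09 (adjusted p = 0.00783), and Dnajb2, known best from neurons, at -0.31 ± 0.10 (adjusted p = 0.0413). Scaled to total assigned reads these turned to -0.01 and 0.05. Dnajb2 also failed without any single vehicle library, without chow replicate 2 or 3, and without 326E replicate 2 or 3.

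HSF1 target chaperones of the cytosol, a list of 14 members, gave 5 rises and no fall: Hspa1a, Hspa1b, Hspa8, Dnajb1 and Dnajb4. That is 35.7% called, when 41.6% of all tested genes passed and 20.8% were higher. Counted without adjustment, 7 of the 14 had p under 0.05, and limma voom on whole reads called 6 rises and 0 falls. Their median was 0.50, and it stayed positive scaled to total reads (0.87) and with quantile normalization (0.69). Quantile normalization also called 1 fall in this list, Dnaja4. Without vehicle replicate 2 there were 7 rises, with only that replicate kept 4, and no fall in either. The 9 others included abundant genes with little difference. Hsp90ab1 was at 342, 317 and 467 FPKM in chow, 342, 402 and 372 FPKM in vehicle, and 403, 342 and 347 FPKM in 326E livers, with all groups overlapping (0.01 ± 0.16, adjusted p = 0.983). It was called higher with quantile normalization alone (0.67, adjusted p = 0.0116, against 0.0116 to 1.0 over all alternatives).

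Hsp90aa1, the inducible cytosolic Hsp90, varied widely in the controls. It was at 98.5, 44.3 and 179 FPKM in chow, 119, 112 and 89.6 FPKM in vehicle, and 85.4, 83.5 and 96.7 FPKM in 326E livers, and did not pass (0.20 ± 0.40, adjusted p = 0.724). Hsph1, the inducible Hsp110, followed the same order of chow libraries at 8.89, 4.81 and 15 FPKM, with 15.4, 15.9 and 11.7 FPKM in vehicle and 10.2, 8.10 and 11.1 FPKM in 326E livers. It did not pass (0.64 ± 0.31, adjusted p = 0.132) but did without chow replicate 3 (1.0, adjusted p = 0.0137) and scaled to total reads (1.0, adjusted p = 0.0252), within a range of 0.0137 to 0.383 over all alternatives. Hspa4 and Hspa4l, the other Hsp110 genes, were at -0.11 ± 0.12 and -0.00 ± 0.22, so that limma called 0 of 3 Hsp110 genes, with 0 at an unadjusted p under 0.05 and 0 by voom. Hspb1 overlapped in all groups, at 61.3, 21.9 and 74.3 FPKM in chow, 34.5, 85.9 and 44.5 FPKM in vehicle, and 81.8, 74.4 and 37.7 FPKM in 326E livers (0.13 ± 0.50, adjusted p = 0.862). Dnaja1, an Hsp40 of the cytosol that shares 10.8% of its exon bases with other genes, was at 0.36 ± 0.17 (adjusted p = 0.116) and passed without vehicle replicate 2 (0.50, adjusted p = 0.0408), with quantile normalization (0.53, adjusted p = 0.0218) and scaled to total reads (0.74, adjusted p = 0.00333), within a range of 0.00333 to 0.837.

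Hspb8, which works with Bag3 in clearing misfolded protein by autophagy, was split by library. It was at 82.5, 112 and 85.6 FPKM in chow, 255, 91.5 and 223 FPKM in vehicle, and 85.8, 92.6 and 92.8 FPKM in 326E livers. Vehicle replicates 1 and 3 lay far above every other library, and replicate 2 was within the chow range. Hspb8 did not pass (0.90 ± 0.33, adjusted p = 0.0551). Without vehicle replicate 2 it rose by 1.36 (adjusted p = 0.000388), and with only that replicate kept it was at -0.01 (adjusted p = 0.970). It also passed scaled to total reads (1.30, adjusted p = 0.00724), with quantile normalization (1.33, adjusted p = 0.00970) and by voom (0.92, adjusted p = 0.0305).

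Immediate early genes were also lower in vehicle replicate 2 than in the other vehicle libraries. Of 13 tested, 11 rose with the diet, 84.6% called when 41.6% of all tested genes passed. The median difference from the chow mean over all 15 listed was 3.53, 0.73 and 3.96 in vehicle replicates 1, 2 and 3, against 0.68, 0.43 and 0.29 in the 326E libraries. Dnajb1 was at 3.14, 0.84 and 2.33 on the same scale, Hspb8 at 1.46, -0.01 and 1.27, and Dnajb4 at 1.11, 0.46 and 1.23. Hspa1b was at 2.68, 2.27 and 1.73, Hspa1a at 1.39, 1.57 and 1.60, and Hspa8 at 0.64, 0.74 and 1.0. For the last 3, replicate 2 was not the lowest vehicle library. The part of immediate early activity, and of the macrophages whose markers rose, in these results was not tested.

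The ER members gave calls in both directions. Of 10, 1 rose, 4 fell and 5 did not pass (3 fell without vehicle replicate 2, and 0 with only that replicate kept), 50.0% called against 41.6% of all tested genes. Their median was -0.27, turning to 0.05 with 1 rise and 0 falls when scaled to total reads. Hsp90b1 (ENSMUSG00000020048, chromosome 10, 86690209 to 86705509) was at 181, 149 and 309 FPKM in chow, 92.9, 123 and 112 FPKM in vehicle, and 81.3, 82.3 and 91.3 FPKM in 326E livers, with means of 213 ± 85.0, 109 ± 15.3 and 85.0 ± 5.52 FPKM. On the deposited scaling, chow libraries were the highest, vehicle libraries next, and 326E libraries the lowest, with no overlap. Hsp90b1 fell by 0.89 with the diet (SE 0.24, adjusted p = 0.0163). That call ended without vehicle replicate 1 (-0.78, adjusted p = 0.0554), with quantile normalization (-0.44, adjusted p = 0.136), with replicate 2 as the sole vehicle library (-0.71, adjusted p = 0.197) and scaled to total reads (-0.50, adjusted p = 0.111). Other annotated genes share 15.7% of its exon bases.

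Dnajb11, the ER cochaperone ERdj3, was at 22.3, 24.3 and 32.9 FPKM in chow, 13.4, 15.9 and 15.7 FPKM in vehicle, and 16.2, 12.6 and 12.6 FPKM in 326E livers. Both CDAA-HFD groups lay below chow and overlapped each other. It fell by 0.77 with the diet (SE 0.16, adjusted p = 0.00445), which was not kept scaled to total reads (-0.39, adjusted p = 0.0939) or with only vehicle replicate 2 kept (-0.69, adjusted p = 0.0768). Dnajc3, known as p58IPK, was at 82.4, 77.1 and 126 FPKM in chow, 66.1, 70.1 and 62.1 FPKM in vehicle, and 50.0, 58.3 and 60.0 FPKM in 326E livers. On the deposited scaling these were again in that order without overlap. For the diet Dnajc3 was at -0.49 ± 0.18 and did not pass (adjusted p = 0.0538), but did without chow replicate 2 (-0.62, adjusted p = 0.0282) and by voom (-0.50, adjusted p = 0.0434). Over all alternatives its difference ranged from -0.62 to -0.09 and its adjusted p from 0.0282 to 0.695.

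The ER member that rose was Dnajc10, a disulfide reductase known as ERdj5, at 11.2, 9.87 and 11.5 FPKM in chow, 16.3, 17.1 and 15.4 FPKM in vehicle, and 12.4, 12.8 and 14.6 FPKM in 326E livers. Every vehicle library lay above all others, and Dnajc10 rose by 0.54 ± 0.10 (adjusted p = 0.00221). Dnajc25 was at -0.31 ± 0.10 (adjusted p = 0.0317), a call lost without any 1 of chow replicates 2 and 3 and vehicle replicates 1, 2 and 3, and turned to 0.03 scaled to total reads.

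The mitochondrial members had no call upwards: of 9, 0 rose, 5 fell and 4 did not pass. That is 55.6% called, when 41.6% of all tested genes passed and 20.8% were lower. Without vehicle replicate 2, 4 fell. The list's median was -0.32, and -0.34 with only that replicate kept. Quantile normalization called 6 falls, with a median of -0.39. Scaled to total reads the median turned to 0.02, with 1 fall. Dnaja3, a matrix partner of mitochondrial Hsp70, was at 27.1, 30.1 and 29.5 FPKM in chow, 18.3, 20.9 and 17.9 FPKM in vehicle, and 24.6, 21.9 and 26.1 FPKM in 326E livers. The groups did not overlap, and Dnaja3 fell by 0.58 with the diet (SE 0.10, adjusted p = 0.00186), though scaled to total reads it was at -0.20 (adjusted p = 0.202) and, with replicate 2 as the sole vehicle library, at -0.45 (adjusted p = 0.0579). Dnajc28 (ENSMUSG00000039763, chromosome 16, 91614254 to 91619026) was at 6.61, 5.11 and 6.31 FPKM in chow, 2.18, 3.20 and 1.73 FPKM in vehicle, and 4.81, 5.0 and 5.83 FPKM in 326E livers. The vehicle libraries lay below all others, and Dnajc28 fell by 1.07 (SE 0.16, adjusted p = 0.000845).

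Dnajc19, part of the mitochondrial protein import motor, was at -0.45 ± 0.13 (adjusted p = 0.0196), Dnajc30 at -0.40 ± 0.12 (adjusted p = 0.0220) and Dnajc15, an inner-membrane inhibitor of respiratory complex I, at -0.28 ± 0.09 (adjusted p = 0.0262). Dnajc30 shares 26.2% of its exon bases with Bud23 on the opposite strand. Each of these calls was lost scaled to total reads, where Dnajc15 turned to 0.02. Dnajc19 also lost its call without chow replicate 1 or 2 or vehicle replicate 2, Dnajc30 without chow replicate 3 or vehicle replicate 3, and Dnajc15 without chow replicate 1 or vehicle replicate 1 or 3. The abundant chaperonins did not pass: Hspd1 was at 197, 180 and 247 FPKM in chow, 179, 164 and 167 FPKM in vehicle, and 202, 203 and 233 FPKM in 326E livers (-0.28 ± 0.14, adjusted p = 0.138), and its partner Hspe1 was at -0.32 ± 0.14 (adjusted p = 0.106). For this pair limma called 0 of 2, with 0 at an unadjusted p under 0.05 and 0 by voom.

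Of the 3 falls kept when scaled to total reads, those of Hspb6 and Dnajc22 lay outside the ER and mitochondrial lists. Hspb6, the small heat shock protein Hsp20 (ENSMUSG00000036854, chromosome 7, 30552178 to 30555443), was at 5.73, 6.28 and 5.62 FPKM in chow, 1.97, 2.44 and 2.73 FPKM in vehicle, and 4.36, 5.95 and 5.22 FPKM in 326E livers. Vehicle lay below all other libraries, and chow and 326E overlapped. Hspb6 fell by 1.03 with the diet (SE 0.12, adjusted p = 0.000233). Dnajc22, a membrane-spanning cochaperone (ENSMUSG00000038009, chromosome 15, 99093170 to 99104737), was at 58.4, 63.5 and 64.7 FPKM in chow, 41.1, 32.7 and 39.2 FPKM in vehicle, and 38.8, 41.5 and 43.6 FPKM in 326E livers. Both CDAA-HFD groups were below chow, and Dnajc22 fell by 0.71 (SE 0.11, adjusted p = 0.000889). Both diet falls were kept under all 18 alternatives run. The 25 tested DnaJC genes gave 2 rises, 6 falls and 17 without a call, 32.0% called when 41.6% of all tested genes passed. Dnajc27, the rise not yet described, was low, at 0.228 to 0.985 FPKM, and its call (0.37 ± 0.13, adjusted p = 0.0390) was lost without 7 of the 9 libraries, all but chow replicate 3 and vehicle replicate 3. None of its chow libraries reached 0.5 FPKM, so it passed the filter through the CDAA-HFD groups. Dnajc12, a cochaperone of aromatic amino acid hydroxylases, was at 6.50 FPKM in chow replicate 2 and at 1.19 to 2.19 FPKM in every other library (-0.50 ± 0.36, adjusted p = 0.300).

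**Figure D3:**
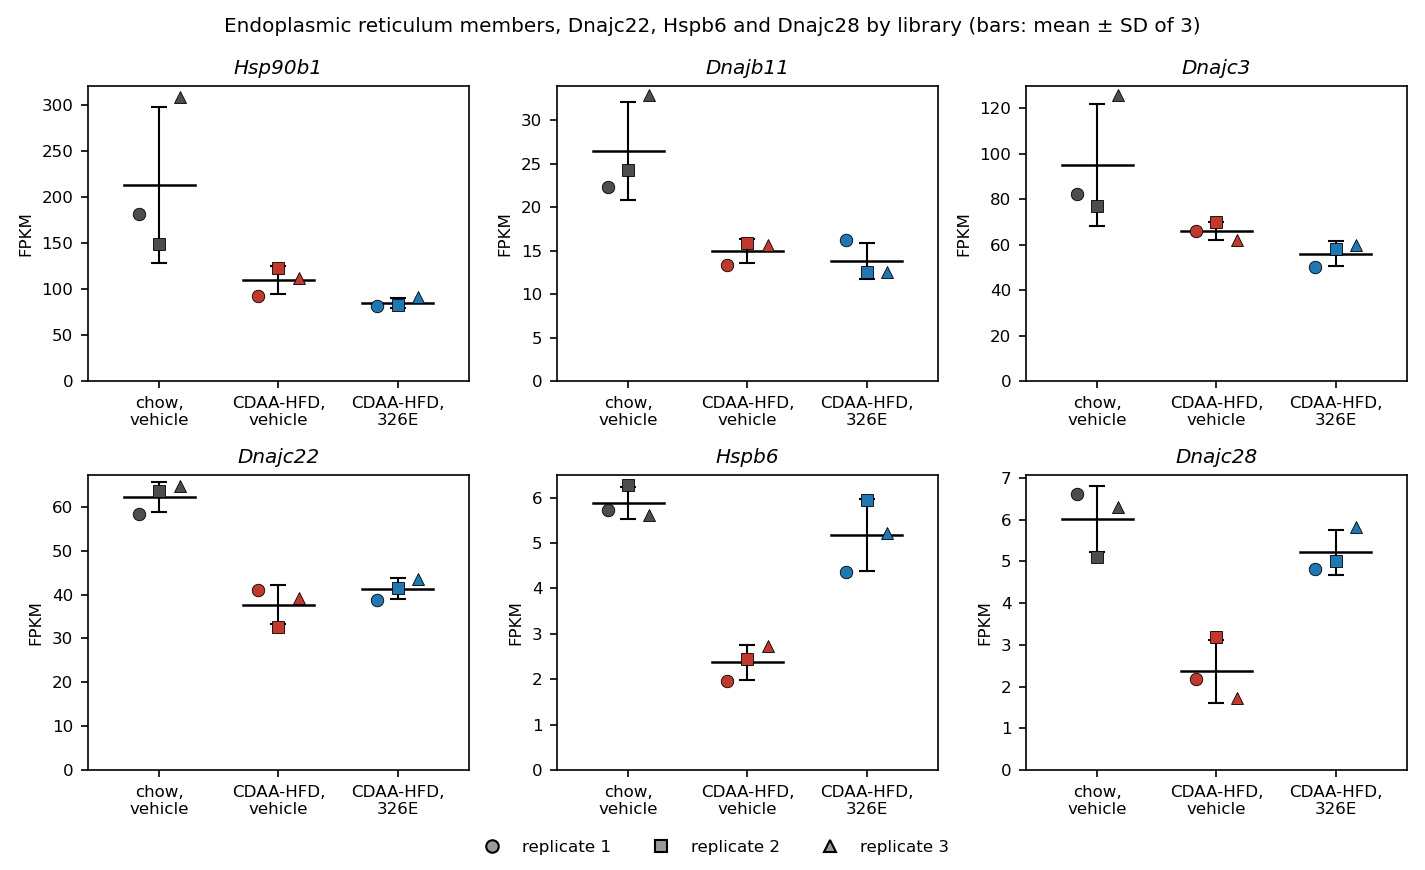
FPKM of 3 ER members (Hsp90b1, Dnajb11, Dnajc3), Dnajc22, Hspb6 and Dnajc28 in each library, with the group mean and SD of 3 libraries; symbols give the replicate number, and each axis starts at 0. The 326E libraries overlap with or lie below vehicle for the first 4 genes and near chow for Hspb6 and Dnajc28; the diet falls of Hsp90b1 and Dnajb11 were not kept when scaled to total assigned reads.

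Heat shock unit matches were set against the diet calls as a description. A member was counted if any of its windows held a match, whereas the 12.8% of all windows above is per window. Matches were not counted by call over all genes, so these counts have no like share beside them. A link between matches and calls was not tested. Of the 8 members that rose, 7 had a promoter window and 6 of these held GAANNTTC or TTCNNGAA: Dnajb4, Dnajb6, Dnajc10, Dnajc27, Hspa1a and Hspa1b. Hspa1a and Hspa1b are counted separately here, although they share 119 of the 120 bases shown. The diet calls of Dnajb6 and Dnajc27 were lost in 8 of 18 and 11 of 17 alternatives. The remaining rise with a window, Dnajb1, had no match in these 250 bases, and Hspa8 had no window. Of the 12 that fell, 10 had a window and 1, Hspb6, a match. Of the 37 that did not pass, 28 had a window and 6 a match, Hspb1, Hsph1 and Dnaja1 among them.

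The second comparison, 326E against vehicle, asked what the compound changed in CDAA-HFD livers. It shares the vehicle libraries with the first, so a chance high or low vehicle value moves both in opposite directions. Of the 57 tested members 2 rose and 4 fell, 10.5%, when 11.5% of all tested genes passed, 4.96% higher and 6.50% lower. The members' median was -0.05, against -0.02 for all genes. Without vehicle replicate 2 the calls were 2 rises and 5 falls. With only that replicate kept, limma called 0 members, with 9 at an unadjusted p under 0.05 and 322 of all 13737 genes called; voom on all libraries called 8 members. Leaving out vehicle replicate 1, 326E replicate 1 or 326E replicate 2 gave 3 calls each.

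The 4 members that fell had all risen with the diet: Hspa1a, Dnajb1, Dnajb4 and Dnajb6. Hspa1a fell by 1.10 with 326E (SE 0.15, adjusted p = 0.00408), its 3 libraries lying below the 3 vehicle libraries. With only vehicle replicate 2 kept it was at -1.15 and did not pass (adjusted p = 0.0544). Hspa1b was at -0.98 ± 0.28 and just missed (adjusted p = 0.0525; 0.0267 to 0.161 over the alternatives, past the threshold in 6 of 18, among them without vehicle replicate 3, at -1.23). The summed pair fell by 1.09 (SE 0.25, adjusted p = 0.0265). Hspa8 was at -0.46 ± 0.16 (adjusted p = 0.0909), although no 326E library reached any vehicle library. It passed scaled to total reads (-0.50, adjusted p = 0.0474) and after quantile normalization (-0.54, adjusted p = 0.0213), in a range of 0.0213 to 0.371.

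Dnajb1 fell by 1.73 (SE 0.46, adjusted p = 0.0437), and this call was lost when any library other than vehicle replicate 2 was left out (adjusted p = 0.0576 to 0.129). With only vehicle replicate 2 kept the difference was -0.47 (adjusted p = 0.208). Dnajb4 fell by 0.87 (SE 0.19, adjusted p = 0.0205), a call lost without vehicle replicate 1 or 3 or 326E replicate 1 or 2 (adjusted p = 0.0607 to 0.0750), and Dnajb6 by 0.36 (SE 0.09, adjusted p = 0.0306), lost without vehicle replicate 1 or 3 or any 326E replicate (adjusted p = 0.0527 to 0.0908). Hspb8 was at -0.93 ± 0.33 (adjusted p = 0.103), at -1.39 without vehicle replicate 2 (adjusted p = 0.00181) and at -0.02 with only that replicate kept (adjusted p = 0.974). Of the 13 immediate early genes, 9 fell with 326E, 13 without vehicle replicate 2 and 2 with only that replicate kept. Of the 5 macrophage markers 3 fell. The part of either in these falls was not tested.

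In the list of 14 HSF1 target chaperones, 3 fell, none rose and 11 did not pass. That is 21.4% called, when 11.5% of all tested genes passed and 6.50% were lower. The list's median was -0.39 (-0.42 scaled to total reads and -0.43 with quantile normalization), against -0.02 for all genes tested. Hsp90ab1, Hsp90aa1 and Hsph1 were at -0.03 ± 0.16, -0.26 ± 0.40 and -0.50 ± 0.31.

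The 2 members that rose with 326E had fallen with the diet. Hspb6 rose by 0.87 ± 0.12 (adjusted p = 0.00447) and Dnajc28 by 0.90 ± 0.16 (adjusted p = 0.0104), each higher in every 326E library than in any vehicle library. Both calls were kept in 17 of 18 alternatives and ended with only vehicle replicate 2 kept, at 0.84 (adjusted p = 0.0528) and 0.56 (adjusted p = 0.133). Dnajc28 was the only mitochondrial member of 9 to pass. Dnaja3 was at 0.33 ± 0.10 (adjusted p = 0.0669), Hspd1 at 0.32 ± 0.14 (adjusted p = 0.165) and Hspa9 at 0.20 ± 0.10 (adjusted p = 0.246). Dnajb2 was at 0.36 ± 0.10 (adjusted p = 0.0588) and passed with quantile normalization and voom (adjusted p = 0.0381 and 0.0475).

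No ER member passed between 326E and vehicle: limma called 0 of 10, with 2 at an unadjusted p under 0.05 and 0 by voom, and their median was -0.11. Hsp90b1 was at -0.35 ± 0.24 (adjusted p = 0.376), Dnajb11 at -0.12 ± 0.16 (adjusted p = 0.662) and Dnajc3 at -0.24 ± 0.18 (adjusted p = 0.422). Dnajc22, which had fallen with the diet, was at 0.13 ± 0.11 (adjusted p = 0.455). A value that misses the threshold does not show that the groups are alike.

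The third comparison set 326E on CDAA-HFD against chow, and shares its libraries with the other two. Of the 57 members 1 rose and 6 fell, 12.3%, when 26.8% of all tested genes passed, 14.4% higher and 12.5% lower. The members' median was -0.09 against -0.02 for all genes. Scaled to total reads, where the median of all genes moved to 0.235, 11 rose and 2 fell, and with quantile normalization 6 rose and 5 fell. The falls kept under total reads were Hsp90b1 and Dnajb11. Without 326E replicate 1 the count was 1 rise and 3 falls.

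Of the 6 falls, 4 were of ER members. Hsp90b1 fell by 1.25 against chow (SE 0.24, adjusted p = 0.00577) and Dnajb11 by 0.89 (SE 0.16, adjusted p = 0.00391), each under all 18 alternatives. Dnajc3 fell by 0.72 (SE 0.18, adjusted p = 0.0165), which ended without 326E replicate 1 (-0.64, adjusted p = 0.0619), with quantile normalization (-0.44, adjusted p = 0.108) and scaled to total reads (-0.36, adjusted p = 0.137). Dnajc25 fell by 0.40 (SE 0.10, adjusted p = 0.0154), lost without chow replicate 3 (-0.36, adjusted p = 0.0548) or 326E replicate 1 (-0.32, adjusted p = 0.05) and scaled to total reads. In all, 4 of 10 ER members fell and none rose, 40.0% called against 26.8% of all tested genes, with a median of -0.26 that turned to 0.05 scaled to total reads. The ER member Dnajc10 was at 0.27 ± 0.10 (adjusted p = 0.0746), and passed as higher than in chow when values were scaled to total reads (0.60, adjusted p = 0.00276) or quantile-normalized (0.36, adjusted p = 0.0358). Dnajc22 fell by 0.58 (SE 0.11, adjusted p = 0.00487), although it was at -0.22 scaled to total reads (adjusted p = 0.101). Dnaja4, low at 0.372 to 1.24 FPKM and sharing 44.1% of its exon bases with Wdr61 on the other strand, fell by 0.45 (SE 0.12, adjusted p = 0.0268), a call lost without chow replicate 3 or any 326E replicate.

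Hspa1b was the member called above chow with 326E on the deposited scaling (1.25 ± 0.28, adjusted p = 0.0106), and the summed pair gave 1.27 ± 0.25 (adjusted p = 0.00663). Hspa1a was at 0.42 ± 0.15 and did not pass (adjusted p = 0.0676), but did with a pseudocount of 0.1 (1.23, adjusted p = 0.0242), scaled to total reads (0.51, adjusted p = 0.0435) and by voom (1.56, adjusted p = 0.0499), within a range of 0.0242 to 0.392 over all alternatives. Hspa8 was at 0.33 ± 0.16 (adjusted p = 0.153, and 0.0015 to 0.389 over the alternatives) and passed under 2 other scalings, at 0.70 (adjusted p = 0.00454) for total reads and 0.85 (adjusted p = 0.0015) for quantiles. Dnajb1, Dnajb4 and Hspb8 were at 0.37 ± 0.46, 0.06 ± 0.19 and -0.03 ± 0.33, and Hspb6 and Dnajc28 at -0.16 ± 0.12 and -0.17 ± 0.16, none of which passed. No mitochondrial member of 9 passed by limma on the deposited scaling, with 1 at an unadjusted p under 0.05 and 0 by voom. Scaled to total reads 2 were higher, Hspd1 (0.41, adjusted p = 0.0316) and Hspa9 (0.34, adjusted p = 0.017), and with quantile normalization the same 2 (0.51 and 0.36, adjusted p = 0.0188 and 0.0253).

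Regulators and partners of the chaperones were read from a list of 37 other genes, all tested. With the diet 3 rose, 6 fell and 28 did not pass, 24.3% called, when 41.6% of all tested genes passed. The partners' median was -0.18, turning to 0.19 with 9 rises and 0 falls scaled to total reads. Hsf1 itself was at 1.47, 2.09 and 1.78 FPKM in chow, 1.46, 1.66 and 2.02 FPKM in vehicle, and 2.10, 1.98 and 1.40 FPKM in 326E livers, with overlapping groups and a diet difference of -0.04 ± 0.14 (adjusted p = 0.859). Bag3, the exchange factor that pairs with Hspb8, was at 10.3, 9.19 and 8.31 FPKM in chow, 17.1, 13.8 and 17.9 FPKM in vehicle, and 12.3, 11.0 and 9.64 FPKM in 326E livers. It rose by 0.75 ± 0.13 with the diet (adjusted p = 0.00176) and fell by 0.52 with 326E (SE 0.13, adjusted p = 0.0326), with vehicle the highest group throughout. The 326E call ended without vehicle replicate 1 or 3 or 326E replicate 2 or 3 (adjusted p = 0.0872 to 0.105). With replicate 2 as the sole vehicle library Bag3 was at 0.54 for the diet (adjusted p = 0.0570) and at -0.31 for 326E (adjusted p = 0.384). Unc45a, an Hsp90 cochaperone for myosin, rose by 0.63 ± 0.10 (adjusted p = 0.00138), and Chordc1, an Hsp90-binding protein, was the other rise. Bag4 and Cdc37l1, a relative of the kinase cochaperone Cdc37, fell by 0.80 (SE 0.20, adjusted p = 0.0123) and by 0.57 (SE 0.09, adjusted p = 0.00116), though scaled to total reads they were at -0.47 and -0.24 and did not pass (adjusted p = 0.0734 and 0.122).

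With 326E, 2 partners rose against vehicle, 1 fell and 34 did not pass, 8.11% called, when 11.5% of all tested genes passed. The rises were of mitochondrial genes. Grpel2, a nucleotide exchange factor of mitochondrial Hsp70, was at 15.9, 13.4 and 18.6 FPKM in chow, 18, 21.1 and 15 FPKM in vehicle, and 32.3, 32.6 and 30.9 FPKM in 326E livers. All 326E libraries lay above all others, and it rose by 0.80 ± 0.14 against vehicle (adjusted p = 0.0101) and by 0.97 ± 0.14 against chow (adjusted p = 0.00164). With only vehicle replicate 2 kept, the first of these was 0.58 and did not pass (adjusted p = 0.140). Trap1, the mitochondrial Hsp90, was at 74.1, 62.4 and 67.2 FPKM in chow, 41.7, 43.2 and 52.5 FPKM in vehicle, and 64.5, 60.3 and 64.2 FPKM in 326E livers. It fell by 0.56 with the diet (SE 0.11, adjusted p = 0.00417) and rose by 0.46 ± 0.11 with 326E (adjusted p = 0.0345). The rise was lost without chow replicate 3, vehicle replicate 1 or 2 or any 326E replicate (adjusted p = 0.0537 to 0.0972), and the fall scaled to total reads (-0.17, adjusted p = 0.229). Against chow, Sec63, a J-domain protein of the ER translocon, fell by 0.45 with 326E (SE 0.10, adjusted p = 0.00921), but was at -0.10 scaled to total reads (adjusted p = 0.446).

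The 8 subunits of the cytosolic chaperonin TRiC did not pass with the diet: limma called 0, with 1 at an unadjusted p under 0.05 and 0 by voom, and 1 rose when scaled to total reads. Between 326E and vehicle it called 0, with 0 at an unadjusted p under 0.05 and 0 by voom. Against chow 2 fell with 326E, Cct7 (-0.32 ± 0.09, adjusted p = 0.0253) and Cct8 (-0.33 ± 0.10, adjusted p = 0.0449), which turned to 0.02 and 0.03 scaled to total reads and did not pass. The 2 falls were 25.0% of the subunits, when 26.8% of all tested genes passed.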

How the data were processed

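Poly(A)-selected liver RNA of 9 libraries, 3 per group, was sequenced. Per the submitters' processing notes, reads were aligned with HISAT2 to mm10 and counted with featureCounts. Their versions, the annotation, the strand setting and the handling of reads that match several places are not given in the sources used here. The deposited table holds FPKM per gene, computed by the authors, beside each gene's length in bases. FPKM times length gave whole read numbers for 100.0% of values (tolerance 0.01), and the library sizes in the deposited FPKM were 0.828 to 1.192 times the assigned reads, so the authors' values already include a scaling between libraries. One read in a 2 kb gene was worth 0.0246 to 0.0455 FPKM.

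The members, the gene lists and the rule for named genes were chosen with earlier results of these data known. Testing covered the 13737 of 54532 genes that reached 0.5 FPKM in at least 3 libraries. limma 3.58.1 (R 4.3.3), with a variance trend, was fitted once to log2(FPKM + 1) of all 9 libraries without a covariate (6 residual degrees of freedom), with Benjamini-Hochberg adjustment over all tested genes in each of 3 comparisons. The script was tested on simulated data. Tables and figures were made with Python 3.11.15, pandas 2.3.3, numpy 2.4.6 and matplotlib 3.10.9.

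Named in full were 20 members whatever their values, among them Hspa1a, Hsp90b1 and Dnajc3, the 5 called members with the largest rise and fall per comparison, Hsf1, Bag3, and the 2 called partners with the largest change each way. Dnaja3, Dnajb2, Dnajb12, Dnajc10, Dnajc19, Dnajc25, Dnajc27, Dnajc30, Hspa2, Hspa4, Hspa4l, Trap1's and Chordc1's diet calls, Cct7 and Cct8 were added after their values were seen. Lists were cytosolic HSF1 targets, ER and mitochondrial members, partners, TRiC, immediate early genes, and markers of hepatocytes, macrophages, stellate cells, endothelium, cholangiocytes, smooth and skeletal muscle and fat. The alternatives were 18: pseudocounts 0.1 and 5, no filter, a mean of at least 1 FPKM, scaling to total assigned reads, quantile normalization, voom on whole reads, a replicate block, each library left out, and only vehicle replicate 2 kept. Summing Hspa1a and Hspa1b was added after seeing the data. Promoter sequences are RefSeq's on GRCm38.p6. No protein sequence was used here.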

Additional observations from a re-analysis of the deposited data

How the results depend on the processing

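Of the 53 called gene values of the members (33), partners and TRiC over the 3 comparisons, 14 kept direction and call under all 18 alternatives. Scaled to total assigned reads 7 falls turned: Dnajb2 (0.05), Dnajc25 (0.03), Dnajc15 (0.02) and Bag1 (0.02) with the diet, and Sil1 (0.04), Cct7 (0.02) and Cct8 (0.03) for 326E against chow. That scaling ended 18 more calls without a change of sign, keeping only vehicle replicate 2 ended 26, and voom on whole reads and a pseudocount of 0.1 ended none of the 53. For the count of members called with the diet, 20, that last setting gave 9, and leaving out 1 library gave 15 to 19. For 326E against vehicle, 6, it gave 0 by limma, with 9 members at an unadjusted p under 0.05, and leaving out 1 library gave 3 to 7. For 326E against chow, 7, total-read scaling gave 13 and quantile normalization 11, and leaving out 1 library gave 4 to 8. The cause of these shifts was not tested. Settings that leave out libraries also have fewer samples. With the replicate block the counts were 18, 6 and 6. Same-numbered libraries deviated from their group means with correlations of -0.244 to 0.024, so the numbers were not taken to pair samples. The block ended 12 of the 53 calls, among them Dnajb6 in both comparisons. Where 1 vehicle library was kept, it was assumed to vary like the other groups. Groups of 3 were not tested for outlying samples. Depth limits the lowest members: Hspa1a in chow rests on 5 to 8 reads, and the 13 members under the filter were too low to test.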

Other observations

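Summed levels of the families were read on the deposited scaling. Summed DnaJC FPKM was 264 to 314 in chow, 216 to 224 in vehicle and 205 to 221 in 326E livers, so that chow stood above both CDAA-HFD groups. Summed Hsp70 FPKM, carried mostly by Hspa8, was 411 to 489 in chow, 592 to 695 in vehicle and 464 to 543 in 326E livers. Small heat shock proteins summed to 142 to 167, 182 to 294 and 138 to 175 FPKM, with vehicle above the other groups. DnaJB genes summed to 72.7 to 82.7, 68.3 to 112 and 59.8 to 68.6 FPKM, and DnaJA genes to 101 to 111, 94.3 to 114 and 93.8 to 107 FPKM, with vehicle overlapping chow in both. These sums, and differences between families, were not tested.

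Other cell type markers were also measured beside the members. Stellate cell and myofibroblast markers summed to 6.55 to 17.8 FPKM in chow, 50.9 to 95.6 FPKM in vehicle and 41.4 to 50.0 FPKM in 326E livers, with 3 of 5 higher with the diet and 2 lower with 326E. Endothelial markers summed to 29.4 to 37.4, 36.1 to 45.9 and 43.0 to 43.4 FPKM, with 2 of 4 higher with the diet. Cholangiocyte markers summed to 2.19 to 8.90, 9.17 to 31.0 and 5.09 to 15.1 FPKM, with 2 of 3 tested higher with the diet. Smooth muscle markers summed to 0.331 to 2.36, 0.935 to 4.94 and 1.76 to 4.41 FPKM, and fat markers to at most 5.03 FPKM. Hepatocyte markers fell for Ttr and Hnf4a with the diet, 2 of 5, and summed to 39900 to 47300, 26800 to 41800 and 25100 to 36200 FPKM.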
